A study of Mus musculus with 93 samples.

Results

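The genes described here are those of the main enzymes that methylate lysine 9 of histone H3 (H3K9) and of the HP1 proteins that bind the methylated lysine. They were taken by name: the methyltransferases Suv39h1, Suv39h2, Ehmt1, Ehmt2 and Setdb1, the KAP1 gene Trim28, and the HP1 genes Cbx1, Cbx3 and Cbx5. These are 9 of the 33924 gene names counted in each library, and all 9 passed the filter on low counts in both comparisons.

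The cells were R1 embryonic stem cells of the mouse, grown in serum medium that held leukaemia inhibitory factor (LIF), and the 12 RNA-seq libraries among the series' 93 samples were used. Set 1 holds 3 wild type libraries and 3 with genotype Ring1b I53A, a point mutation in the subunit through which Polycomb repressive complex 1 places ubiquitin on histone H2A. Set 2 holds 3 wild type libraries and 3 with genotype H1b/c/d/e-QKO, which names linker histones. No further allele, agent or time is given for these groups, nor how many clones each line stands for. The labels do not say whether each replicate had its own culture, so the p-values reflect the spread among libraries, and that spread may be technical.

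SUV39H1 and SUV39H2 are related enzymes that place H3K9 trimethylation, above all on the repeats beside centromeres. G9a (Ehmt2) and GLP (Ehmt1) work as a heterodimer that places mono- and dimethylation on silent genes, and SETDB1 places trimethylation on endogenous retroviruses and some genes in embryonic stem cells. SETDB1 is brought there by KAP1, which KRAB zinc finger proteins carry to DNA. HP1 alpha (Cbx5), HP1 beta (Cbx1) and HP1 gamma (Cbx3) read the mark through a chromodomain.

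Total counts ran from 12585621 to 23378930 per library. Embryonic stem cell markers summed to between 4668 and 7358 CPM (the count relative to the library's TMM-scaled total, scaled within the set), and all 8 stood at 1 CPM or more in every group. Of the 4 linker histone genes in the QKO genotype's name, Hist1h1b had 2 to 9 counts per wild type library against 53 to 72 in the libraries with that genotype, and Hist1h1c had 143 to 205 against 129 to 202. Hist1h1d (3 to 14 against 5 to 15 counts) and Hist1h1e (0 to 6 against 3 to 12) had too few counts for a fall to be detectable. No source used here says how far such histone transcripts were captured. The RNA thus does not bear out the genotype, and with no allele given it cannot refute the genotype either. The genotype rests on the label here, and those libraries are called labelled QKO. Rnf2, the gene of Ring1b, ranged from 178 to 193 CPM in set 1 wild type and from 85.8 to 98.2 CPM in I53A, but a level of RNA does not check a point mutation. The set 1 libraries of replicate 3 stood apart from replicates 1 and 2 in both genotypes, and results that this touches are given with the replicate number as a block as well. In bulk RNA, fewer cells of a type and less RNA per cell cannot be told apart.

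The promoters of the genes that changed most are shown first, since these genes differed in direction. RefSeq windows on GRCm38.p6 were found for all 9 genes, with 13 windows in all, and the 250 bases before the first listed start are printed 5′ to 3′. Capitals mark 2 words in either orientation: CGCAGGCG, a word like the binding site of NRF1, and CCAAT, the box bound by NF-Y.
Suv39h1 (minus strand, chrX:8074761-8075010): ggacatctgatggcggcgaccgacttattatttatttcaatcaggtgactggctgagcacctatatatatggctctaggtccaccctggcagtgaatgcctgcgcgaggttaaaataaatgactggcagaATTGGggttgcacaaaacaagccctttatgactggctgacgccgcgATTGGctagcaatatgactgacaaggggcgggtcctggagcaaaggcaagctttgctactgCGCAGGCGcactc
Suv39h2 (minus strand, chr2:3474987-3475236): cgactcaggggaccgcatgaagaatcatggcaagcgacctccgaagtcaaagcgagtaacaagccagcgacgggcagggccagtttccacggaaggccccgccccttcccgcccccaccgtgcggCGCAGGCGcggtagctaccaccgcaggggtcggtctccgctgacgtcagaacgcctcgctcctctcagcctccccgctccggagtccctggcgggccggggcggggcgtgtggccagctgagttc
Ehmt1 (minus strand, chr2:24919610-24919859): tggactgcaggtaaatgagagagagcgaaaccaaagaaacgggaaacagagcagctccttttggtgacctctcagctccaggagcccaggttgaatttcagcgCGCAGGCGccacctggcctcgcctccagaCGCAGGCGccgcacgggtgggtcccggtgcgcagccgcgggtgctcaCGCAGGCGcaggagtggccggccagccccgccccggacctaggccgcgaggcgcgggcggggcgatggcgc
Cbx5 (minus strand, chr15:103239853-103240102): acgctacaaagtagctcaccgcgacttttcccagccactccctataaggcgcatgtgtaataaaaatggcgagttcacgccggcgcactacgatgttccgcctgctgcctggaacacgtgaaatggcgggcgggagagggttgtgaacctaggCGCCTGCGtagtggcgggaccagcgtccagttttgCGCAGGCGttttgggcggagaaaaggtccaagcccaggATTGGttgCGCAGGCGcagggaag
Trim28 (plus strand, chr7:13023902-13024151): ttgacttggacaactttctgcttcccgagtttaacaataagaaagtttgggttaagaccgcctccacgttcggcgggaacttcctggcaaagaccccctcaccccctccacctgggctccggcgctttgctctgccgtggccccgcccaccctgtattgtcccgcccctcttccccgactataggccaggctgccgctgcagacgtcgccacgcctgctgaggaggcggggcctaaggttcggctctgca

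CGCAGGCG occurred in 4 of the 13 windows, those of 4 of the 9 genes, Suv39h1, Suv39h2, Ehmt1 and Cbx5. It occurred in 3.9% of the 32851 windows of RefSeq promoters of the same length (250 bases before and 50 after the start). Those 4 genes were also the 4 that passed the test in I53A. The word was picked after both the sequences and the calls had been seen, so the match is a description with no test, and it marks letters, not a bound site. CCAAT occurred in 3 of the 13 windows, of Suv39h1, Cbx5 and Setdb1, and in 37.4% of all windows. The printed Trim28 window held neither word. The letters TATAAA occurred in none of the 13 windows of these genes and in 13.6% of all. Words like the binding sites of YY1, ETS factors and E2F were searched as well. AAGATGGCG (YY1) occurred in 2 windows, of Suv39h1 and Suv39h2, and in 1.4% of all. CCGGAAG (ETS) occurred in 1 window, of Setdb1, and in 8.86% of all. TTTGGCGC (E2F) occurred in 1 window, of Cbx3, and in 0.514% of all.

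The comparisons asked how the RNA of these genes differed from wild type in cells with the Ring1b mutation and in those labelled as lacking linker histones. In I53A, 4 of the 9 genes passed edgeR's quasi-likelihood test at an adjusted p under 0.05: Suv39h1 was higher, and Suv39h2, Ehmt1 and Cbx5 were lower. Of all 15536 genes tested, 35.5% were called, 18.1% higher and 17.4% lower, so the share among these genes was near the background. In the libraries labelled QKO, 7 of the 9 were called, Trim28 and Setdb1 higher and Suv39h1, Ehmt1, Cbx1, Cbx3 and Cbx5 lower. The background there was 57.7% of 15439 genes, 28.7% higher and 29% lower. The 3 libraries of each genotype did not overlap for 4 of the 9 genes in set 1 and for 8 of the 9 in set 2, against 49.4% and 61.5% of all genes. No member changed as much as 2-fold in either comparison (the largest log2 change was 0.78 in size), while 13.6% of all genes in set 1 and 12% in set 2 had a log2 change of 1 or more in size. The median size of the log2 change was 0.29 over the 9 genes and 0.32 over all genes in I53A, and 0.18 and 0.29 in the libraries labelled QKO.

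**Figure D1:**
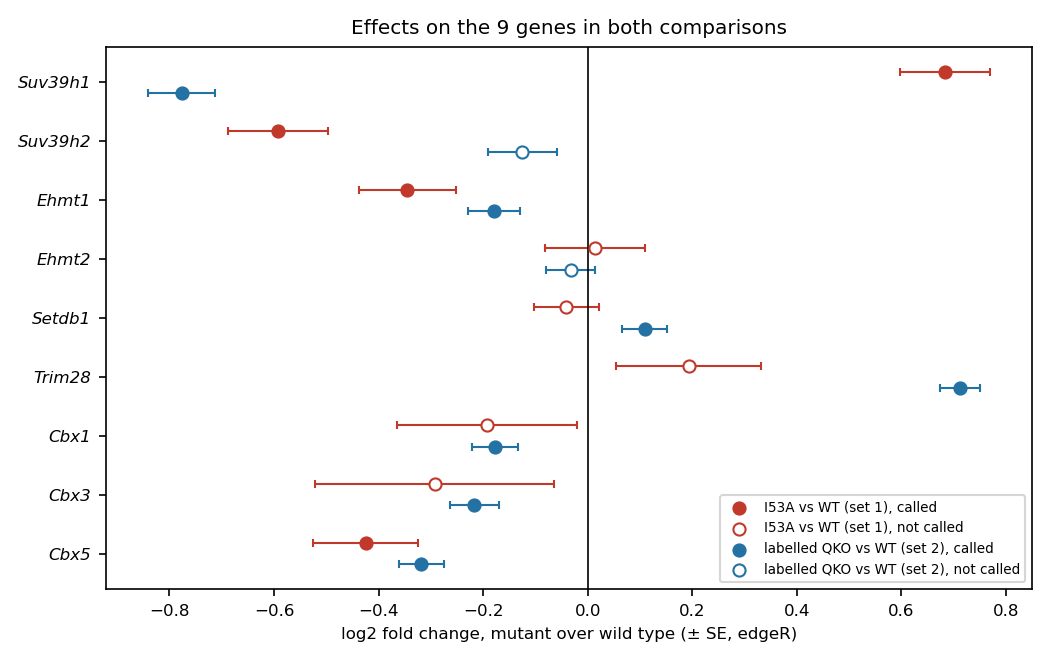
Log2 fold change of each gene, mutant over wild type, with its standard error from edgeR, for I53A in set 1 (red) and for the libraries labelled QKO in set 2 (blue); filled points passed an adjusted p under 0.05. Suv39h1 lies on opposite sides of 0 in the 2 comparisons, at 0.68 and -0.78, and Ehmt1 and Cbx5 lie below 0 in both.

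Suv39h1 (chromosome X, 7638297 to 7651886, minus strand, mm9) codes for the founding member of the SUV39 family. It stood at 34.04, 33.5 and 36.9 CPM in set 1 wild type and at 56.3, 52.9 and 58.5 CPM in I53A. Every I53A library was above every wild type library of its set, and the gene was 1.61-fold higher (log2 0.68 ± 0.09 SE, edgeR adjusted p = 0.000624). The wild type of set 2 gave 51.9, 49.9 and 54.9 CPM and the libraries labelled QKO gave 31.1, 30.7 and 29.7 CPM. There every wild type library was the higher, and the gene fell by 0.78 on the log2 scale (SE 0.06, edgeR adjusted p = 3.05e-15). The I53A effect minus the QKO effect was 1.48 ± 0.10 SE on the log2 scale (edgeR interaction over 12 libraries, adjusted p = 5.05e-08). By that test 36.1% of 16501 genes were called, and 3 of these 9.

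The wild type groups of the 2 sets themselves differed in Suv39h1 by as much as the mutants did from wild type. Scaled over all 12 libraries, the gene stood at 32.8 ± 1.48 CPM in set 1 wild type, 53.2 ± 2.35 in I53A, 55.2 ± 2.62 in set 2 wild type and 32.2 ± 0.75 in the libraries labelled QKO (SD, n = 3 each). The 12 libraries thus fell into a lower and a higher level, and each level held wild type libraries of 1 set and mutant libraries of the other. Genotype is compared only within a set, where set and genotype do not mix; across sets, culture, library and alignment cannot be told apart.

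Gm14820, a gene on the opposite strand that runs into Suv39h1 from its far end (chromosome X, 7626298 to 7651745, plus strand, 1842 exonic bases), moved the other way in both comparisons. It was singled out after its values had been seen, as the only other gene whose exons share bases with Suv39h1: 596 bases, or 11.3% of the counted length of Suv39h1. Its counts were 99, 104 and 111 in set 1 wild type, against 24, 24 and 20 in I53A, a fall of 2.22 on the log2 scale (SE 0.25, edgeR adjusted p = 0.000339). Set 2 gave 15, 7 and 12 counts in wild type, against 61, 31 and 54 in the libraries labelled QKO, a rise of 1.98 ± 0.32 SE (log2, edgeR adjusted p = 6.12e-07).

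In CPM scaled over 12 libraries, Gm14820 averaged 6.22 ± 1.47 in set 1 wild type, 2.48 ± 0.39 in the libraries labelled QKO, 1.35 ± 0.12 in I53A and 0.64 ± 0.26 in set 2 wild type (SD, n = 3 each). Every library in the 2 groups with low Suv39h1 was above every library in the 2 groups with high Suv39h1. The difference between the effects was -4.17 ± 0.39 SE (log2, edgeR interaction, adjusted p = 1.65e-06). Per the file headers the counting set no option for strand, and reads over bases that both genes share cannot be assigned to either, so the counts come from the remaining exons of each and the strand of those reads was not used. Whether the 2 transcripts influence each other was not tested.

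**Figure D2:**
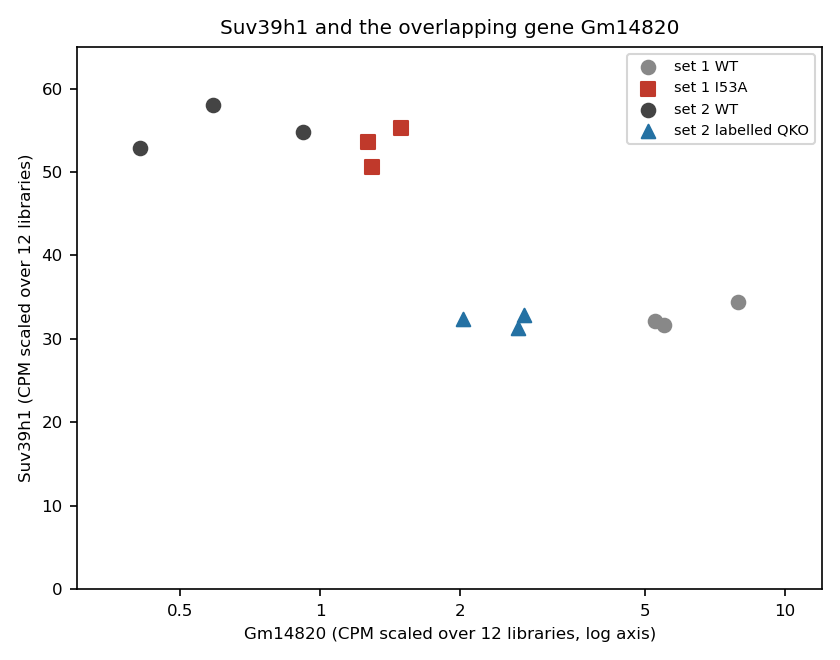
Suv39h1 against Gm14820 in each of the 12 libraries, both in CPM scaled over all 12, with Gm14820 on a log axis; colour and shape give the group. The libraries of set 1 wild type and those labelled QKO lie at 31.3 to 34.5 CPM of Suv39h1 with the higher Gm14820 values, and those of I53A and set 2 wild type lie at 50.7 to 58.0 CPM with the lower ones.

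Suv39h2 (chromosome 2, 3373087 to 3392303, minus strand), whose enzyme is best known from testis and early development, fell in I53A, opposite to its paralogue. It stood at 41.3, 40.6 and 38.2 CPM in set 1 wild type and at 26.3, 28.8 and 24.6 CPM in I53A, with no overlap. The fall was 0.59 on the log2 scale (SE 0.10, edgeR adjusted p = 0.00203). The wild type of set 2 gave 39.8, 38.3 and 38.9 CPM and the libraries labelled QKO gave 34.1, 36.7 and 36.7 CPM. The groups did not overlap, but the difference did not pass (log2 -0.13 ± 0.07 SE, edgeR adjusted p = 0.10). The effects differed between the sets by -0.45 ± 0.11 SE (log2, edgeR interaction, adjusted p = 0.00539). Suv39h2 shares 357 exonic bases with Dclre1c on the opposite strand, 8.1% of its counted length.

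Set side by side per kilobase of exon, the balance of the pair shifted while its sum moved little in I53A. The ratio of Suv39h1 to Suv39h2 in CPM per kilobase was 0.73 ± 0.07 in set 1 wild type and 1.77 ± 0.23 in I53A, and 1.12 ± 0.05 in set 2 wild type and 0.71 ± 0.05 in the libraries labelled QKO (SD, n = 3). The sum of both was 15.7 ± 0.13 and 16.6 ± 0.05 CPM per kilobase in set 1, and 18.8 ± 0.55 and 13.9 ± 0.26 in set 2. None of these 4 pairs of groups overlapped, and each gave p = 0.1 by a two-sided exact permutation test, the smallest that 3 against 3 libraries allow.

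Ehmt1, coding for GLP (chromosome 2, 24646289 to 24775129, minus strand), was lower in both comparisons. It stood at 117, 115 and 133 CPM in set 1 wild type and at 89.6, 92.1 and 105 CPM in I53A. The groups did not overlap, and the fall was 0.35 on the log2 scale (SE 0.09, edgeR adjusted p = 0.0205). The call was lost without I53A replicate 1 (adjusted p = 0.0880) or I53A replicate 2 (0.0753), and with the replicate block the adjusted p was 9.13e-06. For Ehmt1 in set 2, wild type values were 90.8, 89.8 and 86.8 CPM and values in the libraries labelled QKO were 82.3, 76.1 and 77.3 CPM. This smaller fall, 0.18 on the log2 scale (SE 0.05, edgeR adjusted p = 0.00193), also came without overlap. The difference between the 2 effects did not pass (edgeR adjusted p = 0.289).

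Ehmt2, coding for its partner G9a (chromosome 17, 35035414 to 35050997, plus strand), did not pass in either comparison. It stood at 155, 153 and 185 CPM in set 1 wild type and at 162, 156 and 180 CPM in I53A, overlapping throughout. The log2 difference was 0.01 with a 95% interval from -0.18 to 0.20 (edgeR adjusted p = 0.929). The wild type of set 2 gave 170, 171 and 196 CPM and the libraries labelled QKO gave 174, 173 and 179 CPM, a log2 difference of -0.03 with an interval from -0.12 to 0.06 (edgeR adjusted p = 0.569). The ratio of Ehmt2 to Ehmt1 per kilobase was 1.75 ± 0.04 in set 1 wild type and 2.25 ± 0.08 in I53A (SD, n = 3, two-sided exact permutation p = 0.1, no overlap). The start of Ehmt2 lies 17 bases from that of C2, a complement gene on the other strand. C2 ranged from 1.53 to 2.55 CPM in set 2 wild type and from 0.746 to 0.812 CPM in the libraries labelled QKO (12 to 44 counts per library). It fell there by 1.28 on the log2 scale (SE 0.32, edgeR adjusted p = 0.000666). In I53A its log2 difference was -1.02 ± 0.48 SE and did not pass (edgeR adjusted p = 0.134).

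Setdb1 (chromosome 3, 95127447 to 95161124, minus strand) differed little between genotypes. It stood at 267, 266 and 278 CPM in set 1 wild type and at 267, 261 and 260.2 CPM in I53A. The groups overlapped, and the log2 difference of -0.04 had a 95% interval from -0.16 to 0.08 (edgeR adjusted p = 0.652). The wild type of set 2 gave 185, 179 and 186 CPM and the libraries labelled QKO gave 206, 191 and 196 CPM. It rose there by 0.11 ± 0.04 SE on the log2 scale (edgeR adjusted p = 0.0263). The call was lost without set 2 wild type replicate 1 (adjusted p = 0.0526) or 2 (0.143) and without replicate 1 labelled QKO (0.203).

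Trim28 (chromosome 7, 13609501 to 13616384, plus strand), coding for KAP1, showed the largest rise of the group in the libraries labelled QKO. It stood at 1353, 1414 and 1516 CPM in set 2 wild type and at 2385, 2268 and 2369 CPM in those libraries, with a wide gap between the groups. The rise was 1.64-fold (log2 0.71 ± 0.04 SE, edgeR adjusted p = 6.91e-22). In set 1 its wild type values were 2171, 2117 and 2832 CPM, against 2516, 2472 and 3151 CPM in I53A. Replicate 3 was the highest of its genotype in both groups, which overlapped, and the log2 difference was 0.19 ± 0.14 SE (edgeR adjusted p = 0.317). With the replicate number as a block the I53A difference was 0.20 ± 0.03 SE and passed (edgeR adjusted p = 2.72e-05).

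The I53A effect on Trim28 minus the QKO effect was -0.50 ± 0.15 SE (log2, edgeR interaction, adjusted p = 0.0211), a call lost without I53A replicate 1 (0.0516) or set 2 wild type replicate 1 (0.0528). The ratio of Trim28 to Setdb1 per kilobase rose from 13.2 ± 0.72 in set 2 wild type to 20.1 ± 0.43 in the libraries labelled QKO (SD, n = 3, two-sided exact permutation p = 0.1, no overlap). As with Suv39h1, the wild types differed: Trim28 stood at 2233 ± 356 CPM in set 1 and 1510 ± 89.3 CPM in set 2, scaled over 12 libraries (SD, n = 3).

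Cbx5, coding for HP1 alpha (chromosome 15, 103021975 to 103070247, minus strand), fell in both comparisons. It stood at 542, 562 and 494 CPM in set 1 wild type and at 396, 445 and 350 CPM in I53A. The groups did not overlap, and the fall was 0.42 on the log2 scale (SE 0.10, edgeR adjusted p = 0.0119; 0.0517 without I53A replicate 1). The wild type of set 2 gave 534, 542 and 475 CPM and the libraries labelled QKO gave 413, 428 and 403 CPM. There too no libraries overlapped, and the fall was 0.32 on the log2 scale (SE 0.04, edgeR adjusted p = 1.10e-08). The effects did not pass as different (edgeR adjusted p = 0.624), with a 95% interval of the difference from -0.32 to 0.15 on the log2 scale.

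Cbx1, coding for HP1 beta (chromosome 11, 96650441 to 96669954, plus strand), moved less. It stood at 347, 368 and 250 CPM in set 1 wild type and at 313, 304 and 226 CPM in I53A. Replicate 3 was the lowest in both genotypes and the groups overlapped, with a log2 difference of -0.19 ± 0.17 SE (edgeR adjusted p = 0.429). With the replicate block it was -0.19 ± 0.04 SE and passed (edgeR adjusted p = 0.000996). In that blocked fit 6 of the 9 genes were called, against 56.6% of all genes. For Cbx1 in set 2, wild type values were 213, 219 and 198 CPM and values in the libraries labelled QKO were 181, 180 and 195 CPM, a fall of 0.18 on the log2 scale (SE 0.04, edgeR adjusted p = 0.000564).

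Cbx3, coding for HP1 gamma (chromosome 6, 51420359 to 51433703, plus strand), can be read only in set 2. Its values there were 169, 177 and 153 CPM in wild type, against 144, 143 and 142 CPM in the libraries labelled QKO. The fall was 0.22 on the log2 scale (SE 0.05, edgeR adjusted p = 8.70e-05), with no overlap. In set 1 its wild type values were 10.6, 7.70 and 8.26 CPM, against 9.53, 5.57 and 6.55 CPM in I53A, a log2 difference of -0.29 ± 0.23 SE (edgeR adjusted p = 0.359). Scaled over 12 libraries, set 2 wild type was 21.1-fold above set 1 wild type.

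Cbx3 is also the only gene of the 9 for which RefSeq lists pseudogenes by its name, 6 in all, of which 4 were found in the tables. The copies drew 5584 counts over the 6 libraries of set 1, against 789 on Cbx3 itself, and 796 against 18116 in set 2. Gm6984 (Cbx3-ps6) drew 4872 and 706 of these counts, and Gm10068 (Cbx3-ps7) drew 708 and 82. Cbx3 held between 8.48% and 19.2% of the joint counts in the libraries of set 1 and between 94.6% and 96.7% in those of set 2. Summed with its copies, Cbx3 stood at 69.1 ± 19.7 CPM in set 1 wild type and 57.2 ± 20.1 in I53A (SD, n = 3, two-sided exact permutation p = 0.5), and the wild types then differed by 2.81-fold. In set 2 the sum was 173 ± 11.6 and 149 ± 0.21 CPM (exact permutation p = 0.1, the smallest possible). Per the file headers, only the alignment files counted in set 1 are named TopHat and unique, and the part of this in the low Cbx3 values was not tested.

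**Figure D3:**
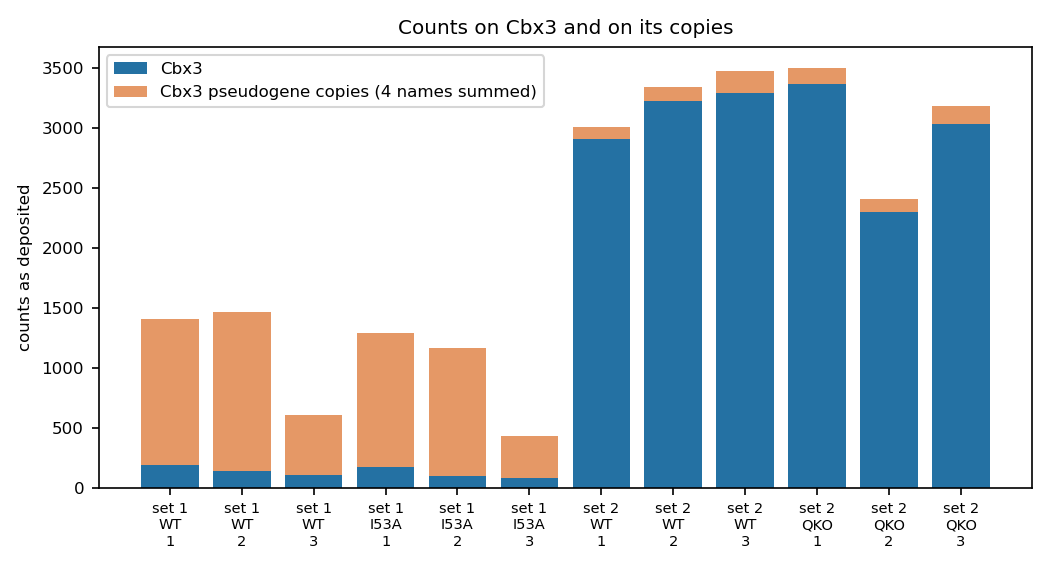
Deposited counts on Cbx3 (blue) and on the 4 names of its pseudogene copies summed (orange) in each library, stacked. In set 1 most of the joint counts lie on the copies, 5584 against 789, and in set 2 most lie on Cbx3, 18116 against 796.

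A wide gap between the sets was also seen for the neighbour of Cbx5. Counts on pseudogene copies were not read for that neighbour, so whether the gap is of the same kind as that of Cbx3 was not tested. Cbx5 and Hnrnpa1, which codes for an RNA-binding protein with many pseudogenes, start 698 bases apart on opposite strands. Hnrnpa1 averaged 31.2 CPM in set 1 wild type and 1224 CPM in set 2 wild type, scaled over 12 libraries. In set 2 it ranged from 1106 to 1207 CPM in wild type and from 749 to 785 CPM in the libraries labelled QKO. It fell there by 0.59 on the log2 scale (SE 0.04, edgeR adjusted p = 1.62e-19), in the direction of Cbx5, as 29% of all genes were called lower. In I53A, where Cbx5 fell, the log2 difference of Hnrnpa1 was -0.05 ± 0.30 SE (edgeR adjusted p = 0.925). Cbx3 and Hnrnpa2b1 start 466 bases apart in the same arrangement, and Hnrnpa2b1 fell by 0.16 on the log2 scale in set 2 (SE 0.04, edgeR adjusted p = 0.000345). In I53A its log2 difference was 0.19 ± 0.17 SE (edgeR adjusted p = 0.431), and with the replicate block it was 0.19 ± 0.03 SE and passed as higher (edgeR adjusted p = 0.000104). Hnrnpa2b1 averaged 1171 and 1396 CPM in the wild types of sets 1 and 2, so the gene beside Cbx3 did not share its gap between sets. Of all 16501 genes, 336 (2.04%) stood at least 10-fold higher in set 2 wild type and 630 (3.82%) at least 10-fold higher in set 1 wild type.

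**Figure D4:**
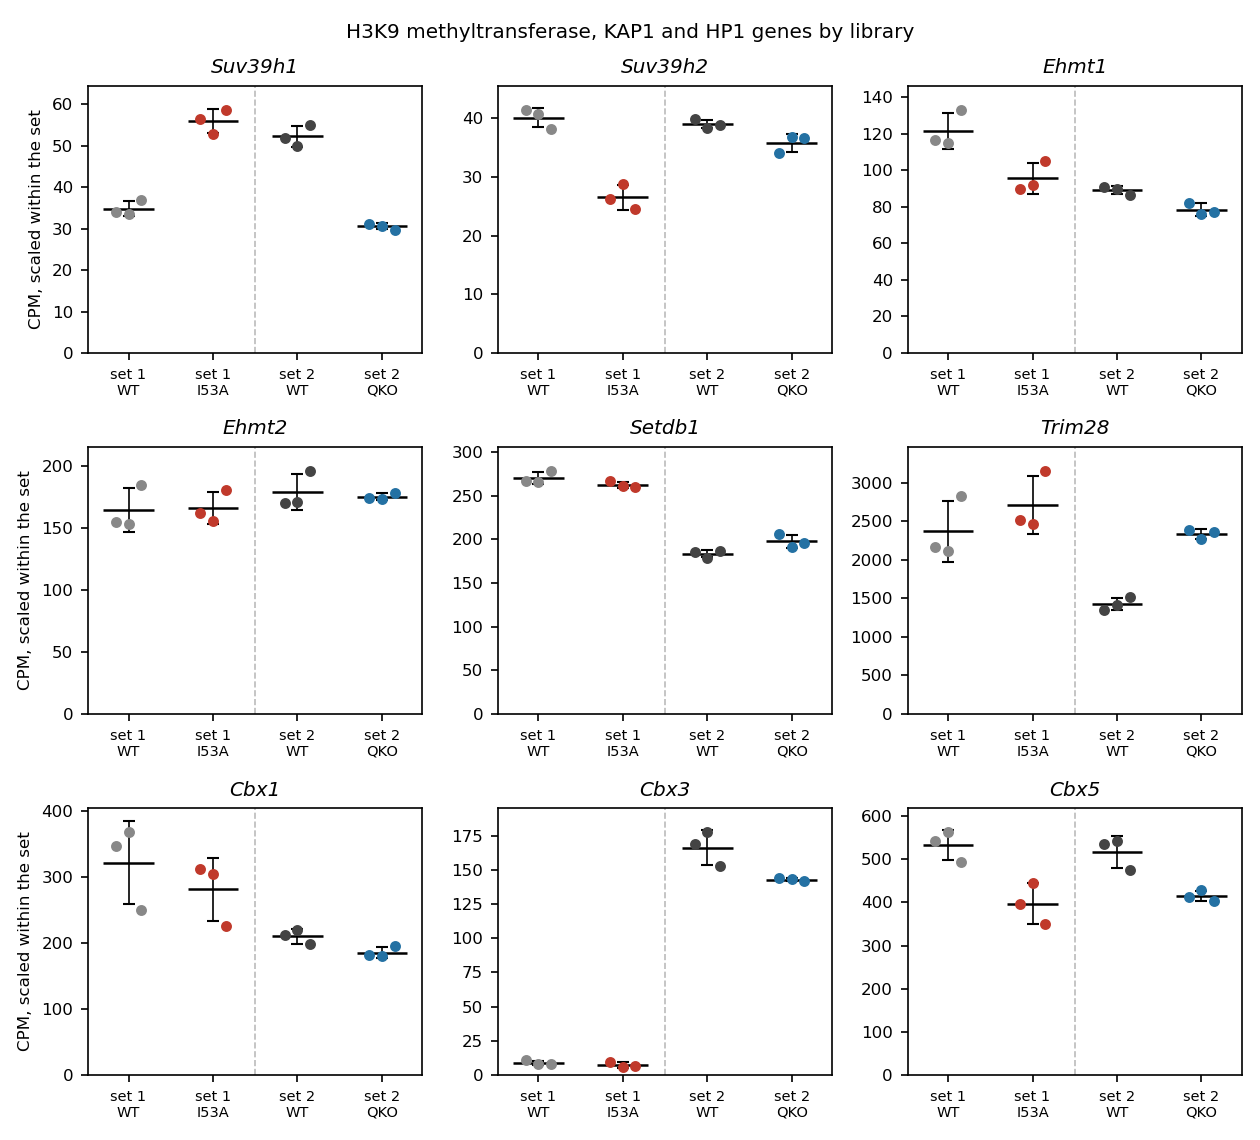
CPM of each gene, scaled within its set, in the 3 libraries of each group (points), with group mean and SD (black); the dashed line parts set 1 from set 2. Suv39h1 is high in I53A and in set 2 wild type, Trim28 is high in the libraries labelled QKO (2268 to 2385 CPM) against their wild type (1353 to 1516 CPM), and Cbx3 is near 0 in set 1 only.

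Levels of different genes were compared per kilobase of exon, in CPM per kilobase scaled within the set. Trim28 was highest in every group, at 587 ± 98.4 in set 1 wild type, 671 ± 93.9 in I53A, 353 ± 20.4 in set 2 wild type and 579 ± 15.6 in the libraries labelled QKO (SD, n = 3). HP1 genes came next. In set 2 wild type Cbx5 (57.4 ± 4.11), Cbx3 (51.5 ± 3.92) and Cbx1 (49.1 ± 2.52) followed in that order, with overlapping libraries between each neighbouring pair. Ehmt2 (32.6 ± 2.62), Setdb1 (26.8 ± 0.55), Ehmt1 (12.5 ± 0.30), Suv39h1 (9.91 ± 0.47) and Suv39h2 (8.84 ± 0.17) came after them without overlap between neighbours. In set 1 wild type Cbx1 (75.2 ± 14.7) and Cbx5 (59.2 ± 3.87) overlapped, and Setdb1 (39.4 ± 1.00) lay above Ehmt2 (29.9 ± 3.22). The SUV39 pair was lowest in every group but for Cbx3 in set 1, with Suv39h2 above Suv39h1 in set 1 wild type and in the libraries labelled QKO and below it in the other 2 groups.

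The genes whose profile over the 12 libraries was nearest to a member were taken by the root mean square distance of centred log2 CPM among 13277 genes, for members with a called log2 change of 0.5 or more in size. For Suv39h1 these were Pcsk6, a proprotein convertase (distance 0.05), Flnc, an actin-binding filamin (0.09), and Nxn, nucleoredoxin (0.11). For Suv39h2 they were Ash2l, a subunit of H3K4 methyltransferase complexes (0.06), the importin Ipo8 (0.07) and the chloride transporter Clcn3 (0.08). For Trim28 they were the importin Ipo13 (0.08), the RNA-binding protein gene Pcbp3 (0.10) and the F-box gene Fbxo9 (0.10). Distances carry no test, and the libraries share their sets.

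Other genes of the pathway were read from 6 lists with 52 names. In I53A 20 of 51 tested genes were called, 10 higher and 10 lower, with a median log2 change of -0.03 against -0.0010 over all genes. In the libraries labelled QKO 35 of 52 were called, 21 higher and 14 lower, with a median of 0.03. The shares of all genes called were 35.5% and 57.7%. By direction, 18.1% of all genes were called higher and 17.4% lower in I53A. In the libraries labelled QKO these shares were 28.7% and 29%, and the counts of each list below are to be read beside them.

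Among the 4 other H3K9 methyltransferases, 2 rose and none fell in I53A, and 2 rose and 1 fell in the libraries labelled QKO. The counts of Mecom do not tell its protein products apart. The gene rose from 3.26 ± 1.23 to 8.01 ± 1.14 CPM in I53A (log2 1.29, edgeR adjusted p = 0.00643). In the libraries labelled QKO it rose from 0.29 ± 0.11 to 1.81 ± 0.43 CPM (log2 2.66, edgeR adjusted p = 1.23e-07), at 16 counts over the wild type group.

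Of 10 partners of SETDB1 and KAP1, 3 rose and 1 fell in I53A, and 7 rose and 1 fell in the libraries labelled QKO. Beside these, 18.1% and 28.7% of all genes were called higher. The gene that fell in I53A was Zfp819, a KRAB zinc finger gene, from 15.2 ± 0.87 to 4.28 ± 0.50 CPM (log2 -1.83, edgeR adjusted p = 6.46e-05). It also fell in the libraries labelled QKO, by 0.38 on the log2 scale (edgeR adjusted p = 0.00160). Atf7ip, whose product binds and stabilises SETDB1, rose from 79.9 ± 3.12 to 138 ± 3.68 CPM in the libraries labelled QKO (log2 0.78, edgeR adjusted p = 2.20e-20), and in I53A its log2 difference was 0.01 ± 0.15 SE (edgeR adjusted p = 0.970). Of the 4 HUSH complex genes, 1 rose and 1 fell in I53A and 3 rose in the libraries labelled QKO. D14Abb1e, an older name of the HUSH subunit TASOR, stood at 287 ± 11.03 and 187 ± 16.4 CPM in set 1 wild type and I53A and at 167 ± 8.44 and 281 ± 11.5 CPM in set 2 (edgeR adjusted p = 0.000810 and 4.44e-21). It thus fell in I53A, rose in the libraries labelled QKO, and again differed between the wild types.

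Of 8 partners of G9a and GLP, 1 rose and 4 fell in I53A, and 2 rose and 3 fell in the libraries labelled QKO. The shares of all genes called lower were 17.4% and 29%, and those called higher 18.1% and 28.7%. E2f6, a repressor that can join G9a and GLP to promoters, rose from 21.6 ± 1.29 to 45.5 ± 0.70 CPM in I53A (log2 1.08, edgeR adjusted p = 7.53e-05). In set 2 it fell from 35.3 ± 1.21 to 25.1 ± 1.06 CPM (log2 -0.50, edgeR adjusted p = 3.91e-08). Of 15 HP1 partners and heterochromatin factors, 2 rose and 3 fell in I53A and 2 rose and 6 fell in the libraries labelled QKO. Chaf1b, a subunit of the histone chaperone CAF-1, fell by 0.60 on the log2 scale in I53A (edgeR adjusted p = 0.000309) and by 0.49 in the libraries labelled QKO (3.56e-12). Trim24, a relative of Trim28, rose by 0.46 in I53A (edgeR adjusted p = 0.000934) and fell by 0.66 in the libraries labelled QKO (2.38e-19).

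Of the H3K9 demethylase genes, 1 of 10 tested rose and 1 fell in I53A, and 5 of 11 rose and 3 fell in the libraries labelled QKO. Jhdm1d (Kdm7a) rose by 0.44 ± 0.10 SE on the log2 scale in I53A (edgeR adjusted p = 0.00961) and by 0.25 ± 0.07 SE in the libraries labelled QKO (0.00241). Phf2 fell from 13.3 ± 0.47 to 6.47 ± 0.14 CPM in the libraries labelled QKO (log2 -1.05, edgeR adjusted p = 5.36e-11), and in I53A its log2 difference was 0.14 ± 0.13 SE (edgeR adjusted p = 0.440). Kdm4d rose there on only 12 and 36 counts per group (log2 1.46, edgeR adjusted p = 0.0190).

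A list of 24 genes known in embryonic stem cells as silenced through H3K9 methylation or KAP1 was read as well. Of these, 22 were in the tables and 13 passed the filter in set 1, of which 11 rose and none fell, beside 18.1% of all genes called higher. A gene silent in wild type passes that filter only through the group where it is high, so these counts describe single genes and support no direction of the list. The germline genes Mael, which acts in transposon silencing in testis, and Stk31 stood at 8.53 ± 0.52 and 14.4 ± 0.66 CPM in wild type, against 65.7 ± 3.76 and 40.3 ± 0.19 CPM in I53A (log2 2.95 and 1.49, edgeR adjusted p = 1.04e-06 and 1.75e-05). Dazl, Taf7l, Tex101 and Slc25a31 rose by 1.32, 2.10, 2.77 and 1.85 on the log2 scale, and the cardiac and trophoblast regulator Hand1 by 2.76. Zscan4c, Zscan4d and Zscan4f, markers of a 2-cell-like state whose near-identical copies leave the split of reads uncertain, rose by 3.58, 3.38 and 3.84.

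In the libraries labelled QKO, 12 of the listed genes passed the filter, and 9 rose and 1 fell, beside 28.7% of all genes called higher. The gene that fell was Eomes, a regulator of trophoblast and mesendoderm, singled out after its values were seen: it fell by 0.97 on the log2 scale there (edgeR adjusted p = 1.07e-10) and rose by 0.72 in I53A (0.00857). Tex101 and Slc25a31 rose by 2.49 and 1.65 on the log2 scale. Zscan4c, Zscan4d and Zscan4f rose by 5.01, 5.32 and 5.65, from 14, 22 and 8 counts over the wild type libraries to 491, 946 and 449.

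**Figure D5:**
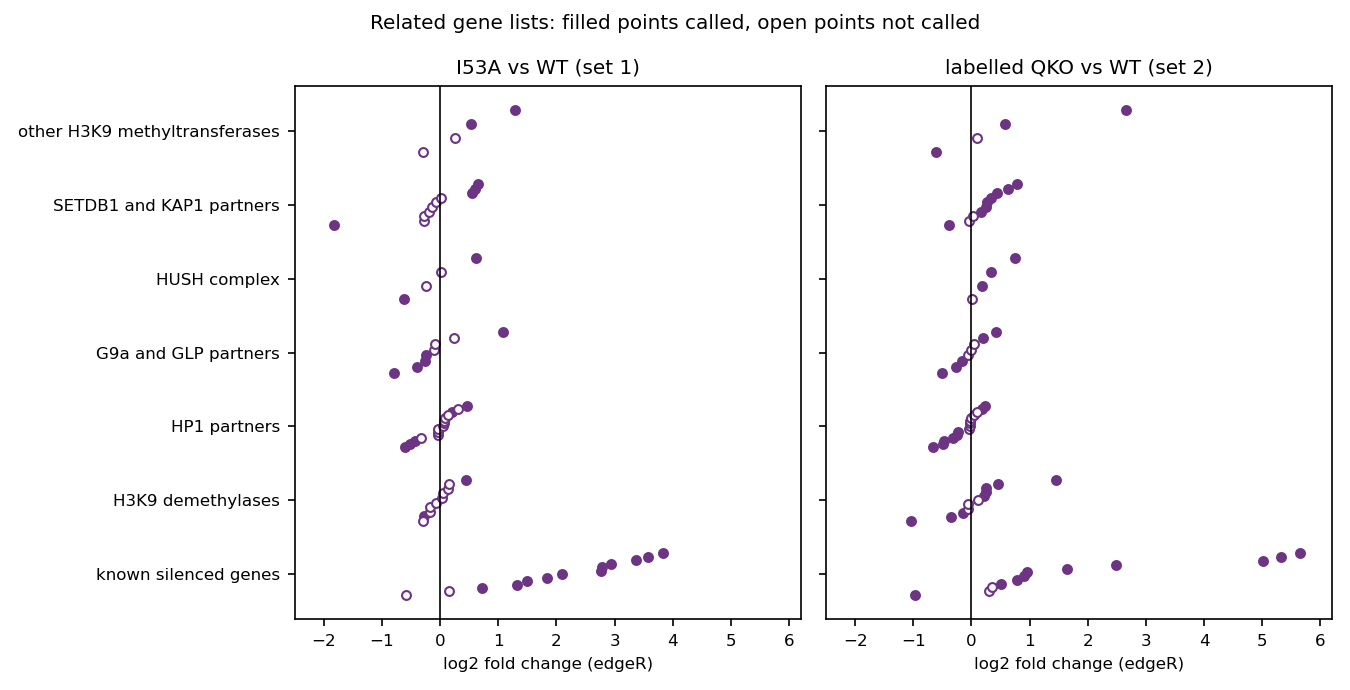
Log2 fold change of every tested gene of the 7 related lists, I53A at left and the libraries labelled QKO at right; filled points passed edgeR's test at an adjusted p under 0.05. The highest points are Zscan4f, at 3.84 in I53A and 5.65 in the libraries labelled QKO, whose near-identical copies leave the split of reads uncertain. Most genes of the lists other than the known silenced genes lie within 1 of 0. Of the known silenced genes 13 and 12 of 22 were tested. Those silent in wild type pass the filter only through a high mutant group, so the lists are not compared in direction.

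Markers of other states moved in both comparisons, and those of primitive endoderm moved most in I53A. The 10 primitive endoderm markers summed to 128 to 141 CPM in set 1 wild type and to 2241 to 2307 CPM in I53A, and all 10 were called higher; in set 2 they summed to 115 to 131 and 142 to 151 CPM, with 4 of 8 tested called higher. Fibroblast (feeder) markers summed to 26.3 to 28.1 and 61.3 to 67.4 CPM in set 1 and to 22.9 to 23.6 and 41.7 to 42.7 CPM in set 2, with Lum at 0 in both mutant groups, Postn at 0 in both wild types, and Lum and Col3a1 at 0 in set 2 wild type as well. Of the 8 fibroblast markers 5 were tested in each set, and 4 rose in I53A and 3 in the libraries labelled QKO. Of the 8 embryonic stem cell markers, 1 rose and 4 fell in I53A, and 5 rose and 3 fell in the libraries labelled QKO. Proliferation genes summed to 3421 to 3550 CPM in set 1 wild type and 3120 to 3272 in I53A, with 2 of 8 lower. In set 2 they summed to 4534 to 4757 and 4135 to 4227 CPM, with 6 of 8 lower. Of all genes 18.1% were called higher and 17.4% lower in I53A, and 28.7% and 29% in the libraries labelled QKO. A marker low in wild type can pass the filter through its mutant group, so the counts of higher markers describe single genes. The part of these states in the changes of the H3K9 genes was not tested.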

How the data were processed

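For each of 12 RNA-seq libraries the authors deposited raw counts per gene. featureCounts 1.6.3 made them on mm9 by gene name, per the file headers, which show no option for strand, multiple alignments or overlapping genes. Total RNA was taken with TRIzol and libraries followed Illumina TruSeq, per the labels' protocols. Tools listed without versions in the submitters' processing notes are Bowtie2, SAMtools, HISAT2, DESeq2 and featureCounts. The alignments of set 1, not those of set 2, have TopHat and unique in their file names, per the file headers.

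After filterByExpr and TMM scaling, the quasi-likelihood test of edgeR (4.0.16, R 4.3.3, robust) was run on the 6 libraries of each comparison, and on all 12 for the difference between effects. P-values are two-sided and adjusted by Benjamini-Hochberg over all genes tested, at a threshold of 0.05. CPM values come from the deposited counts and TMM-scaled totals. Single values were compared by exact permutation (SciPy 1.17.1). No replicate pair fell within sampling noise (chi-square per degree of freedom 2.19 to 27.3). Intervals reach 1.96 SE to each side, a normal quantile, so with 3 libraries per group they are narrower than 95% intervals of edgeR's test. They cover the fit or counting error only.

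The replicate numbers of set 1 paired the libraries: deviations from the group means of same-numbered libraries correlated at 0.342, 0.397 and 0.615 over 15536 genes, which met the threshold of 0.1 for every pair, so blocked values stand beside results they change. Replicates 1 and 2 correlated almost as well across numbers (0.303 and 0.335), so replicate 3 is the library that its number ties, and the deposited tables of I53A replicates 1 and 2 carry each other's number in their names.

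The genes and lists were chosen with earlier results of these data known. Named are the 9 genes, the targeted genes, neighbours with starts within 1000 bases on the other strand, the 3 nearest profiles, and of each list every called gene with a log2 change of 1 or more in size, or else the called gene with the largest change. Alternatives were RLE and upper quartile scaling, no filter, a filter of 1 CPM in 3 libraries, DESeq2 1.42.0, the replicate block, replicates 1 and 2 only, the spread from 12 libraries, and each library left out. The settings for the difference between effects per gene, the values of Gm14820 and the sum of Cbx3 with its copies were added after seeing the data. The results of 1 further list are not reported here.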

Additional observations from a re-analysis of the deposited data

Results flagged for a closer look

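The effect of I53A and the effect in the libraries labelled QKO, each against its own wild type, differed by edgeR's interaction test for 3 of the 9 genes: Suv39h1 by 1.48, Suv39h2 by -0.45 and Trim28 by -0.50 on the log2 scale. Gm14820, the gene whose exons overlap Suv39h1, differed by -4.17. By the same test 36.1% of all genes were called. The genes named from the related lists were chosen for a large change in one of the comparisons, so their differences are given without adjusted p. Of 20 such genes 13 passed the interaction test, a count that this choice favours and that cannot be set against the share of all genes. Those that passed come first. The I53A effect minus the QKO effect was positive for Hand1 (4.48), which did not pass the filter in set 2 alone, with 38 and 12 counts over its groups there. It was also positive for Mael (2.45), E2f6 (1.59), Phf2 (1.20), Taf7l (1.16), Trim24 (1.14), Stk31 (0.60) and Dazl (0.56). It was negative for Zscan4d (-1.93), Zfp819 (-1.42), Mecom (-1.35), D14Abb1e (-1.35) and Atf7ip (-0.75). The named list genes that did not pass were Zscan4f (-1.79), Kdm4d (-1.48), Zscan4c (-1.40), Chaf1b (-0.09), Tex101 (0.31), Slc25a31 (0.22) and Jhdm1d (0.21). The effects come from sets with different wild type levels of several of these genes, and set and genotype background cannot be told apart in this difference.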

How the results depend on the processing

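The calls of Suv39h1 in both comparisons, of Suv39h2 in I53A, of Trim28, Cbx5 and Ehmt1 in the libraries labelled QKO and of Gm14820 in both were kept under every alternative run. Of the 9 genes, 4 were called in I53A, between 2 and 5 with 1 library left out, the lowest without I53A replicate 1. Without that library 1996 of 15914 genes were called higher and 1832 lower, against 2808 and 2704 of 15536 in the main fit. With the spread from 12 libraries 4 of the 9 were called in the libraries labelled QKO in place of 7 (6 to 7 with 1 library left out), and Setdb1, Cbx1 and Cbx3 were lost (adjusted p = 0.116, 0.366 and 0.184). Calls over all genes fell as well, to 3495 higher and 3330 lower of 16501, from 4430 and 4473 of 15439. Setdb1 was also lost with no filter (0.0685). Pathway genes called in I53A numbered 34 with the replicate block and 32 with replicates 1 and 2 only, against 20, and 14 to 26 with 1 library left out. The share of all genes called rose too, to 56.6% with the block from 35.5%. Replicates 1 and 2 only called 4197 of 15706 genes higher and 4146 lower. In set 2 same-numbered libraries did not deviate together (correlations 0.0278, -0.00886 and 0.0811), and the replicate block kept 7 of the 9 genes called. Values near 0 changed sign: Ehmt2 in the libraries labelled QKO was 0.0095 with upper quartile scaling, and with 1 library left out Ehmt2 ranged from -0.0509 to 0.10 in I53A and from -0.0738 to 0.0333 in those. For the difference between effects, Cbx1 was -0.0087 with upper quartile scaling and -0.0207 with the filter of 1 CPM, and with 1 library left out Ehmt2 ranged from -0.0248 to 0.15, Cbx1 from -0.15 to 0.14, Cbx3 from -0.32 to 0.12 and Cbx5 from -0.18 to 0.0028. The cause of these changes was not tested. Depth limits Gm14820 in set 2 wild type (7 to 15 counts) and Cbx3 in set 1.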
